A study of Mus musculus with 24 samples.

Results

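A set of 9 genes that encode mucins and trefoil factors was followed through mouse liver organoids. They were taken by symbol and comprised 6 mucins (Muc1, Muc4, Muc13, Muc20, Muc5ac and Muc5b) and 3 trefoil factors (Tff1, Tff2 and Tff3). All 9 were present in each of 3 tables of FPKM (sequenced fragments adjusted for gene length and for library depth), which held 31053, 25876 and 20729 genes. The rule names them by symbol and applies no cutoff on a measured value, but it was written with earlier results of these data known.

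Mucins are large glycoproteins whose central repeats carry dense O-linked sugar chains. Some span the membrane and cover the apical surface of epithelia, and others are secreted and assemble into gels. Trefoil factors are small secreted peptides held together by disulfide bonds, are released together with gel-forming mucins, and are known for epithelial repair. In the liver, mucins line the bile ducts and peribiliary glands.

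All cells came from wild-type adult BALB/c mice. Cholangiocyte organoids (Cho-Orgs) were grown from EpCAM-positive liver cells and sequenced at passage 0 (P0), P5 and P10, with 3 libraries each. Hepatocyte organoids (Hep-Orgs) were grown from EpCAM-negative cells in a hepatocyte medium (Hep-Med) with the Notch pathway inhibitor DAPT and dexamethasone, and were sequenced at P1, P5 and P10 beside Primary hepatocytes, with 3 libraries each. Grape_like, Intermediate and Round_like Hep-Orgs were picked at P0 from Hep-Med without those additions, and each gave 1 Smart-Seq library. Per the study, the libraries of a group came from separate mice and cultures, and the replicate number names the mouse, so libraries with the same number share an animal across passages. The labels themselves give the numbers alone.

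Depth was 14068906 to 27160365 recovered fragments in the hepatocyte table, about 37440000 to 39930000 estimated fragments in Cho-Orgs and about 40090000 to 40290000 in the Smart-Seq libraries. The libraries labelled Primary hepatocytes went against their label. Their 8 cholangiocyte markers summed to 3852 to 3947 FPKM, against 3798 to 4018 FPKM in Hep-Orgs, and Krt19 stood at 237 ± 6.66 FPKM (SD, n = 3). Their 8 hepatocyte markers summed to 595 to 626 FPKM, with 6 of 8 at a mean of 1 FPKM or more. Among the lower ones, Cyp2e1, an abundant enzyme of mature hepatocytes, was at 0.0100 ± 0.0173 FPKM (SD, n = 3). The Hep-Orgs libraries had a like profile. Their hepatocyte markers summed to 607 to 654 FPKM, with 5 or 6 of 8 at a mean of 1 FPKM or more, and Cyp2e1 had no fragments at P1, P5 or P10. Values are therefore given as those of the libraries labelled Primary hepatocytes, and the name Hep-Orgs is likewise used as a label. The 3 tables were scaled separately, so no test crossed them.

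In Cho-Orgs, the trefoil factors and the gel-forming mucin Muc5ac fell steeply with passage, while Muc1 stayed near its starting level and Muc20 rose. Mean Tff1 was 329-fold lower at P10 than at P0, Muc5ac 108-fold, Tff3 30.8-fold and Tff2 15.3-fold. Over the same interval mean Muc20 was 2.98-fold higher. At P0 all 9 genes had a mean over 1 FPKM, with Muc5b under 1 FPKM in 1 of 3 libraries. At P10 Muc5b was under 1 FPKM in 3 of 3 libraries and Muc5ac in 2 of 3.

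**Figure D1:**
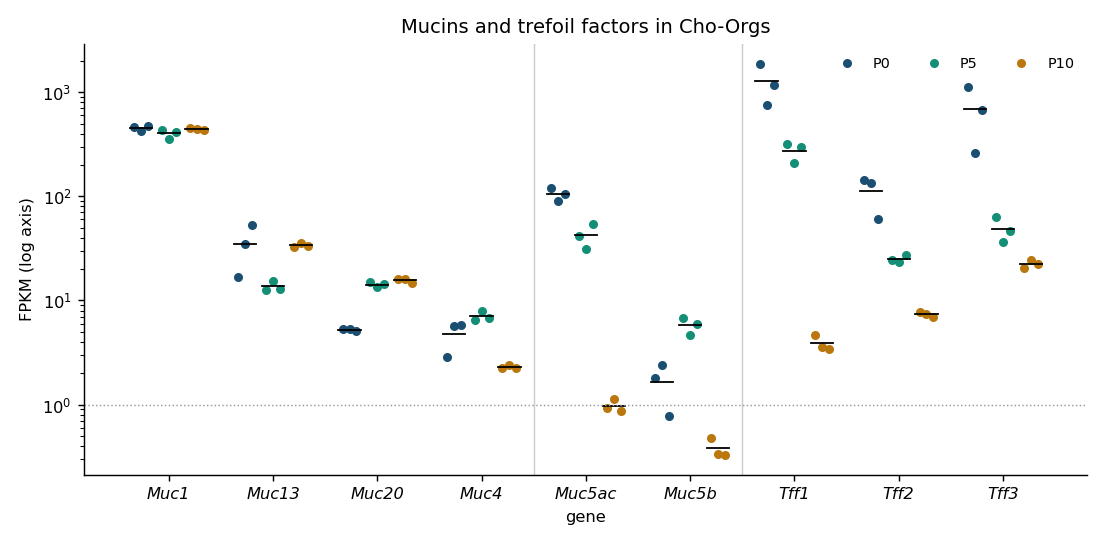
FPKM (log axis) of the 9 genes in each Cho-Org library, with membrane mucins on the left, gel-forming mucins in the middle and trefoil factors on the right. Points are libraries (3 per passage), bars are means and the dotted line is 1 FPKM. Tff1 runs from 761 to 1885 at P0 down to 3.405 to 4.64 at P10, while Muc1 lies between 354 and 470.3 throughout.

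Of the 9 genes tested by limma with Benjamini-Hochberg adjustment over 11593 genes, 3 rose and 5 fell from P0 to P5. Over all genes tested, 34% rose and 22.6% fell in that comparison. From P0 to P10, 1 rose and 6 fell, against 41% and 31.3% of all genes. From P5 to P10, 1 rose and 5 fell, against 31% and 30.5%. Under median-ratio size factors the split of all calls moved from 3938 higher and 2621 lower to 3073 higher and 3458 lower at P5 against P0, and from 4750 and 3634 to 4091 and 4179 at P10 against P0. Among the 9 genes it became 2 higher and 6 lower at P5 against P0 and stayed at 1 and 6 at P10 against P0. Fold changes below are on the scale of log2(FPKM + 1), which understates the change of low genes. Each SE pools the spread of all 3 passages, so P10 against P5 also carries the spread at P0. In bulk RNA, fewer cells of a type and less RNA per cell cannot be told apart.

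Muc1, a membrane mucin of the apical surface whose cytoplasmic tail takes part in signalling, was the most abundant of the 6 mucins. It measured 467, 423 and 470.3 FPKM at P0, 433, 354 and 419 FPKM at P5, and 457, 446 and 431 FPKM at P10. The 3 passages overlapped. The log2 change was -0.18 ± 0.08 (SE) at P5 against P0 (limma adjusted p = 0.0758) and -0.03 ± 0.08 at P10 against P0 (adjusted p = 0.770). The first passed the threshold with the replicate number as a block (adjusted p = 0.0499), under median-ratio size factors (0.0121), without P0 replicate 2 (0.0332) and without P5 replicate 1 (0.0438), and over all alternatives its adjusted p ran from 0.0121 to 0.261.

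Muc13, a membrane mucin of gut and duct epithelia, dipped and returned. It measured 16.8, 34.6 and 53.0 FPKM at P0, 12.7, 15.4 and 12.7 FPKM at P5, and 32.7, 35.6 and 33.2 FPKM at P10. The P0 libraries were 3.16-fold apart and enclosed all P10 values, whereas every P5 value lay below both. It fell by 1.16 ± 0.31 (SE) on the log2 scale from P0 to P5 (limma adjusted p = 0.0100) and rose by 1.26 ± 0.31 from P5 to P10 (adjusted p = 0.00580). The P10 against P0 change was 0.10 (adjusted p = 0.784), and -0.33 without P0 replicate 1 (adjusted p = 0.0725, in a range of 0.0725 to 0.957 over the alternatives).

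Muc20, a membrane mucin known to bind the receptor Met, was tight within passages. It measured 5.26, 5.32 and 5.10 FPKM at P0, 14.9, 13.3 and 14.3 FPKM at P5, and 16.0, 16.0 and 14.8 FPKM at P10. Every later library exceeded every P0 library, and P5 and P10 overlapped. It rose by 1.29 ± 0.06 (SE) on the log2 scale by P5 (limma adjusted p = 1.27e-07) and by 1.41 ± 0.06 by P10 (adjusted p = 2.46e-08), while P10 against P5 gave 0.13 (adjusted p = 0.0758).

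Muc4, a membrane mucin known as a ligand of Erbb2, went up and then down. It measured 2.84, 5.68 and 5.78 FPKM at P0, 6.49, 7.87 and 6.73 FPKM at P5, and 2.26, 2.39 and 2.24 FPKM at P10. The 3 passages did not overlap. Its log2 change was -0.76 ± 0.19 (SE) at P10 against P0 (limma adjusted p = 0.00460) and -1.28 ± 0.19 at P10 against P5 (adjusted p = 2.61e-04). The rise of 0.52 from P0 to P5 (adjusted p = 0.0375) was 0.25 without P0 replicate 1 (0.0207). It lost its call without any 1 of the 3 P5 libraries (0.0606, 0.119 and 0.0712 for replicates 1, 2 and 3) or any 1 of the 3 P10 libraries (0.0542, 0.0528 and 0.0544). It also lost it without the filter on low values (0.0963), under median-ratio size factors (0.0720) and with only P0 and P5 fitted (0.0791), and over all alternatives its adjusted p ran from 0.0164 to 0.119.

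Muc4 and Muc20 lie on opposite strands of chromosome 16 in mm10, at chr16:32735886-32782391 (+) and chr16:32777419-32797435 (-). The genes overlap by 4973 bases, of which 627 are exonic in both in GENCODE M21. The study describes its bulk reads as strand-specific, but the strand setting of the counting is not given in the sources used here, and how far reads in that stretch were assigned to the wrong gene was not tested. Muc13 is on the same chromosome at chr16:33794037-33819934 (+), 996601 bases from Muc20, and Muc1 is at chr3:89229057-89233381 (+).

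RefSeq promoters in GRCm38.p6, from 250 bases before the start site to 50 after it, matched 4 of the 9 genes. Those of Muc1, Muc4 and Muc20 are shown because these 3 membrane mucins, of which the last 2 overlap, followed different courses over passage. Capitals mark matches on either strand to 4 motifs that were chosen with the data in view. The core promoter motif searched was the TATA box, written TATAAA. The GC box, bound by Sp1, was searched as GGGCGG. The E-box was searched as CACCTG. The site of FOXA factors was searched as TGTTTAC. They are Muc1 at chr3:89228806-89229105 (+), Muc4 at chr16:32735636-32735935 (+) and Muc20 at chr16:32797386-32797685 (-), each read along its gene.
Muc1: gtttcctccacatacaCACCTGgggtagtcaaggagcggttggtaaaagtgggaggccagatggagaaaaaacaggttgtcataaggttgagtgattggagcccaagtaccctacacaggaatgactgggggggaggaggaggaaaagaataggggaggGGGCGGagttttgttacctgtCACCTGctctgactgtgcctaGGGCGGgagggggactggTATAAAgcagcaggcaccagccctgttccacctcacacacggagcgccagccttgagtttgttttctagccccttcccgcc
Muc4: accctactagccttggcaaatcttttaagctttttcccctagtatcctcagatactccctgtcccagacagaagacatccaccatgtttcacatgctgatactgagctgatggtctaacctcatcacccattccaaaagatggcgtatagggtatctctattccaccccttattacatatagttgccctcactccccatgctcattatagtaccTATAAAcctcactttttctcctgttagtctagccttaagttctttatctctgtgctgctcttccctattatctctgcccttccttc
Muc20: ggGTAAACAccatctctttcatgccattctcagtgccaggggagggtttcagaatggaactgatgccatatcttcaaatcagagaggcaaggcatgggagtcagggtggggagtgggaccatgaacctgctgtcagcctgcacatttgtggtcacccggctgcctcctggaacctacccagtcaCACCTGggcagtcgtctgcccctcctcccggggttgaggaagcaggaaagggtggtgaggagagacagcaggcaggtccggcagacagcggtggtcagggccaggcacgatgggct
TATAAA began at base -31 of Muc1 and base -36 of Muc4, and 13.6% of 32851 promoters of this length held it. Muc1 also held GGGCGG at -91 and -49 and CACCTG at -234 and -70, which occurred in 35.7% and 20.2% of promoters. Muc20 held CACCTG at -66 and TGTTTAC on the opposite strand at -248, the latter in 3.65% of promoters. The Muc13 promoter held none of the 4 strings. A match is a description of the letters only.

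Muc5ac, the gel-forming mucin of gastric and airway surfaces, showed one of the steepest declines. It measured 119, 90.8 and 106 FPKM at P0, 41.8, 31.4 and 54.5 FPKM at P5, and 0.921, 1.14 and 0.875 FPKM at P10. The passages did not overlap. It fell by 1.32 ± 0.17 (SE) on the log2 scale from P0 to P5 (limma adjusted p = 1.47e-04) and the P10 against P5 change was -4.43 ± 0.17 (adjusted p = 8.14e-08).

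Muc5b, the gel-forming mucin best known from airway glands, took another course from its neighbour. It measured 1.80, 2.42 and 0.776 FPKM at P0, 6.71, 4.65 and 5.98 FPKM at P5, and 0.480, 0.331 and 0.326 FPKM at P10. It was highest at P5 with no overlap between passages. It rose by 1.39 ± 0.21 (SE) on the log2 scale from P0 to P5 (limma adjusted p = 3.80e-04), then changed by -2.29 ± 0.21 (adjusted p = 1.36e-05), and P10 lay below P0 by -0.90 (adjusted p = 0.00327). Muc5ac at chr7:141788972-141819231 and Muc5b at chr7:141839070-141873084 share a strand (+) and are 19838 bases apart.

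Tff1, the gastric trefoil peptide that accompanies Muc5ac at mucosal surfaces, was among the most abundant transcripts of early Cho-Orgs. It measured 1885, 761 and 1181 FPKM at P0, 315, 207 and 298 FPKM at P5, and 4.64, 3.57 and 3.405 FPKM at P10. Among 25876 genes it ranked 17, 73 and 34 at P0 and 7771, 8455 and 8527 at P10. It fell by 2.14 ± 0.28 (SE) on the log2 scale from P0 to P5 (limma adjusted p = 1.68e-04) and the P10 against P5 change was -5.80 ± 0.28 (adjusted p = 3.01e-07).

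Tff2, the trefoil peptide of mucous neck cells and antral glands, measured 143, 135 and 61.1 FPKM at P0, 24.3, 23.6 and 27.2 FPKM at P5, and 7.72, 7.47 and 6.96 FPKM at P10. The passages did not overlap. The log2 change was -2.04 ± 0.26 (SE) from P0 to P5 and -1.63 ± 0.26 from P5 to P10 (limma adjusted p = 1.30e-04 and 4.38e-04).

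Tff3, the trefoil peptide of goblet cells that is also made in bile ducts, measured 1131, 262 and 679.9 FPKM at P0, 63.4, 36.3 and 46.8 FPKM at P5, and 20.6, 24.6 and 22.1 FPKM at P10. Its P0 libraries were 4.32-fold apart, the widest of the 9 genes, yet the lowest of them exceeded every later library. It fell by 3.60 ± 0.43 (SE) on the log2 scale from P0 to P5 (limma adjusted p = 8.50e-05). From P5 to P10 the change was -1.05 ± 0.43 (adjusted p = 0.0559) with no overlap. That change passed the threshold with the replicate number as a block (0.0322), with only P5 and P10 fitted (2.63e-04), without P0 replicate 1 (0.0128) and without P0 replicate 2 (0.00188), and over all alternatives its adjusted p ran from 2.63e-04 to 0.169.

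The 3 trefoil genes form a cluster on chromosome 17, all on the minus strand, with Tff3 at chr17:31125306-31129646, Tff2 at chr17:31141049-31144282 and Tff1 at chr17:31161396-31165053. Gaps of 11402 and 17113 bases separate them. The opposite-strand gene Gm15318 overlaps Tff1 by 1657 bases and went from 2.12 to 0.172 FPKM (P0 and P10 means), and the assignment of reads in that overlap was not tested either. Rsph1, a gene within 100 kb of the cluster that was picked after its values were seen, was at 5.14 FPKM at P0 and 6.07 FPKM at P10 (log2 change 0.20, limma adjusted p = 0.0820).

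The trefoil factors made up 67.4% to 83.7% of the summed FPKM of the 9 genes at P0, 38.5% to 43.9% at P5 and 6.08% to 6.64% at P10. Their sum went from 1158 to 3159 FPKM at P0 down to 32.5 to 35.7 FPKM at P10, while that of the mucins went from 561 to 641 FPKM to 483 to 509 FPKM. Muc1 gave 73.3% to 76.2% of the mucin sum at P0 and 88.9% to 89.7% at P10.

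**Figure D2:**
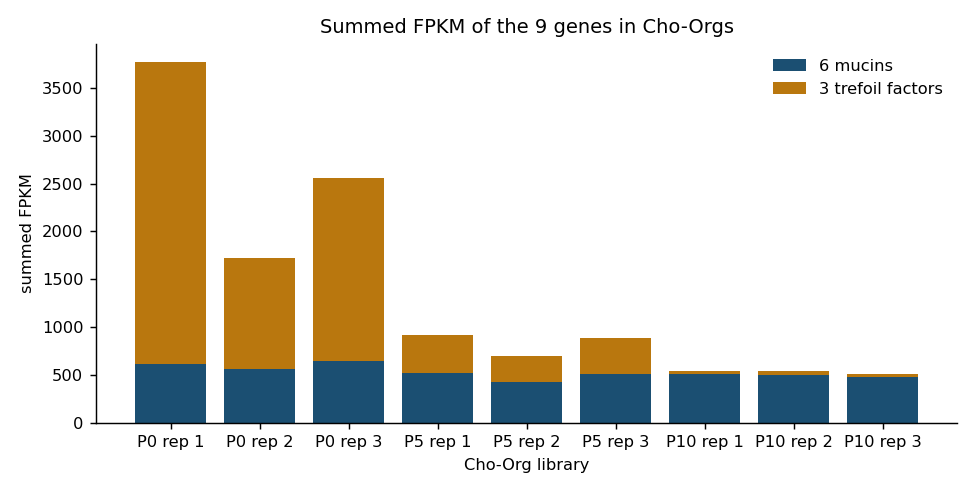
Summed FPKM of the 6 mucins (lower, blue) and the 3 trefoil factors (upper, orange) in each of the 9 Cho-Org libraries. The trefoil part is 67.4% to 83.7% of each bar at P0 and 6.08% to 6.64% at P10.

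Other markers moved over the same passages. The 8 hepatocyte markers summed to 6351 to 7150 FPKM at P0, 197 to 240 FPKM at P5 and 77.8 to 83.3 FPKM at P10, with 7, 5 and 3 of them at 1 FPKM or more and Cps1 and Cyp2e1 at 0 at P5 and P10. The 8 cholangiocyte markers summed to 5099 to 6522, 3512 to 3647 and 3345 to 3375 FPKM, with 8 of 8 at 1 FPKM or more. The 6 squamous markers, of which Lor and Ivl alone reached a mean of 1 FPKM at P10, summed to 8.40 to 9.63 FPKM at P0 and 151 to 160 FPKM at P10. The 5 intestinal markers summed to 31.0 to 54.0 FPKM at P0 and 22.7 to 23.97 FPKM at P10. Of these, Cdx2 and Lyz1 alone reached a mean of 1 FPKM at P0. Cdx2 went from 28.3 to 23.3 FPKM at P10 (limma adjusted p = 0.251). Lyz1 went from 12.5 ± 18.3 to 0.0417 ± 0.0357 FPKM (SD, n = 3). The 5 mesothelial markers, of which Msln alone reached 1 FPKM, summed to 97.8 to 125 FPKM at P0, 541 to 609 FPKM at P5 and 522 to 530.4 FPKM at P10. The 6 macrophage markers, of which Cd68 alone reached 1 FPKM, summed to 27.1 to 34.3, 72.1 to 77.3 and 10.1 to 10.5 FPKM. Their part in the changes of the 9 genes was not tested.

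A list of 24 genes of mucous secretory cells moved mostly downward. Of 19 tested, 16 fell and 2 rose from P0 to P10, with a median log2 change of -1.91, while over all genes 31.3% fell and 41% rose, with a median of 0.07. From P0 to P5, 10 fell and 2 rose, against 22.6% and 34% of all genes. Gkn2, a gastrokine of gastric surface cells, went from 81.1 ± 79.9 FPKM (SD, n = 3) at P0 to being listed at 0 in all 3 P10 libraries. Zg16, a lectin of goblet cell granules, went from 74.7 to 0.338 FPKM, falling by 5.59 on the log2 scale. Pigr, the receptor that carries IgA across epithelia, fell by 4.42. Agr2, a disulfide isomerase needed for mucin folding, was among the most abundant and went from 320 ± 206 to 70.6 ± 1.53 FPKM (SD, n = 3). Spink4, a goblet cell peptide, went from 367 to 89.7 FPKM, and Qsox1, a sulfhydryl oxidase, from 85.2 to 21.5 FPKM. A single P0 library raised several of these means. Without P0 replicate 3 the P0 mean of Gkn2 was 35.9 FPKM. Without P0 replicate 1 that of Zg16 was 43.6 FPKM and that of Spink4 198 FPKM, and the log2 change of Spink4 was -0.97 (limma adjusted p = 0.0175) in place of -1.63 (0.0150). The 2 that rose were Fer1l6, by 1.03, and Foxa1, a forkhead factor, by 0.31.

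**Figure D3:**
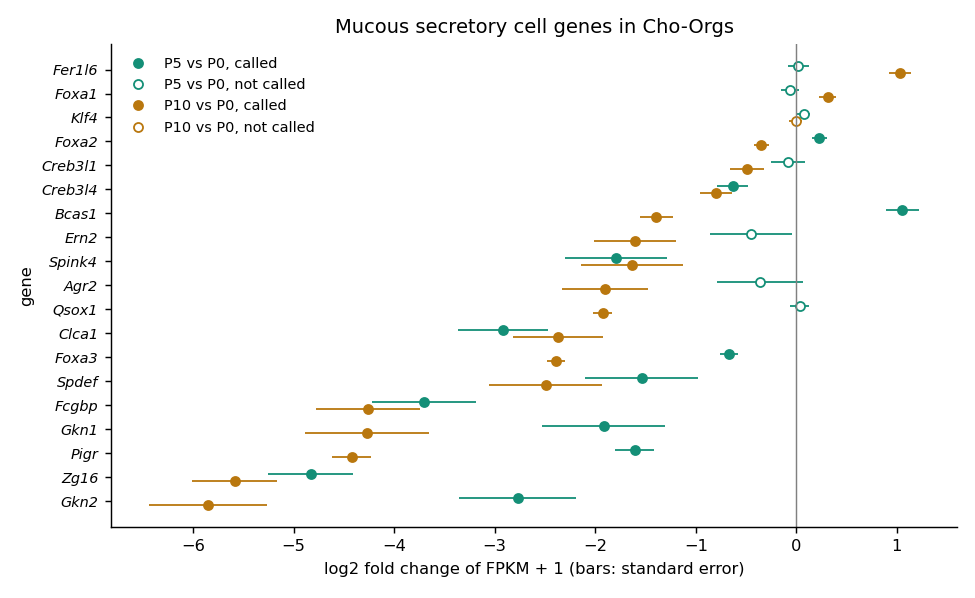
Log2 fold changes of FPKM + 1 (x axis, with standard errors) for the 19 tested mucous secretory cell genes in Cho-Orgs, P5 against P0 in green and P10 against P0 in orange, filled where limma's adjusted p passed 0.05. At P10, 16 filled points lie below 0 and 2 above.

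Among 7 tested genes of 16 other mucins, 5 fell and 1 rose from P0 to P10, with a median of -0.61, against 31.3% lower, 41% higher and a median of 0.07 over all genes. Muc2, the intestinal gel-forming mucin next to Muc5ac, went from 19.1 ± 19.7 to 0.273 ± 0.0417 FPKM (SD, n = 3), and its P0 mean was 8.10 FPKM without P0 replicate 1, with a log2 change of -2.58 in place of -3.40 (limma adjusted p = 2.72e-04). Muc6, a gastric gland mucin, went from 3.41 to 0.00586 FPKM. Mucl3 went from 7.87 to 1.45 FPKM and Cd164, a small sialomucin, from 264 to 186 FPKM. Podxl, an anti-adhesive sialomucin, rose from 21.9 to 44.5 FPKM.

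Of 17 tested genes of 24 for mucin O-glycosylation, 10 fell and 4 rose from P0 to P10, with a median of -0.20, beside the same 31.3%, 41% and 0.07 over all genes. Galnt6, one of the enzymes that start O-glycans, went from 4.01 to 0.0505 FPKM, Galnt2 from 79.9 to 36.8 FPKM and Galnt12 from 23.9 to 10.9 FPKM. Fut2, the fucosyltransferase of secreted blood group antigens, went from 111 to 70.7 FPKM. The branching enzymes Gcnt1 and Gcnt3 rose from 0.382 to 4.49 FPKM and from 24.7 to 65.0 FPKM, and B3gnt3 rose from 16.7 to 27.1 FPKM.

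Of 9 tested genes of 11 partners and sheddases, 6 rose and 2 fell from P0 to P10, with a median of 0.25, beside 41%, 31.3% and 0.07 over all genes. Lgals3, a galectin that binds mucin glycans, rose from 41.3 to 159 FPKM, Erbb3 from 27.8 to 54.2 FPKM and Egfr from 5.58 to 10.2 FPKM. Ctnnb1, which binds the Muc1 tail, rose from 405 to 481 FPKM. Cxcr4 fell by 0.83 and the sheddase Adam17 by 0.33 on the log2 scale. The means of Cxcr4 were 1.98, 4.02 and 0.624 FPKM at P0, P5 and P10.

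Likeness to each gene was measured as the Euclidean distance of centred log2(FPKM + 1) over the 9 Cho-Org libraries, which share passage and processing. Nearest to Muc1 was Rab11b (distance 0.14), to Muc20 Tamalin (0.25), to Muc4 Gm53808 (0.31) and to Muc13 Clec2e (0.62). Nearest to Muc5b was Baiap2l2 (0.81), to Tff2 Usp18 (0.75) and to Tff3 Fcgbp, a goblet cell mucus protein (0.96). Nearest to Muc5ac was Cyba (1.33) and to Tff1 Myl9 (2.11). Apoa1, a hepatocyte apolipoprotein, was second nearest to both Muc5ac (1.73) and Tff1 (2.36).

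In the hepatocyte table, Muc1, Tff3, Muc20 and Muc13 were above 1 FPKM in all 12 libraries. Tff2, Muc4, Muc5b, Muc5ac and Tff1 were under 1 FPKM in all 12. None of the 4 genes tested differed between Hep-Orgs and the libraries labelled Primary hepatocytes, or among the 4 groups, at an adjusted p of 0.05. Over all 10986 genes limma called 0% (0 genes) in the first comparison and 0.0182% (2 genes) in the second, with 966 and 1098 genes at an unadjusted p under 0.05. Of the 4 genes, 0 and 1 had such an unadjusted p. By limma-voom on recovered fragments 12 and 65 genes were called, none of them among these genes.

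Muc1 measured 191, 186 and 181 FPKM in the libraries labelled Primary hepatocytes, 188, 189 and 199 FPKM at P1, 198, 191 and 190.2 FPKM at P5, and 190.4, 183 and 187 FPKM at P10. All 4 groups overlapped. The log2 difference of all Hep-Orgs from the labelled Primary hepatocytes was 0.04 ± 0.02 (SE, limma adjusted p = 0.698).

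Tff3 measured 33.0, 24.2 and 26.1 FPKM in the libraries labelled Primary hepatocytes, 43.5, 34.8 and 32.7 FPKM at P1, 28.7, 32.2 and 30.6 FPKM at P5, and 29.5, 25.6 and 27.7 FPKM at P10. P1 lay above P5 and P10, and overlapped the labelled Primary hepatocytes. The log2 difference was 0.18 ± 0.09 (SE, limma adjusted p = 0.593), and the F test over 4 groups gave an unadjusted p of 0.00996 and an adjusted p of 0.350. The spread of its fragments over the 12 libraries was 9.59 times the counting variance.

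Muc20 lay between 14.9 and 17.0 FPKM and Muc13 between 3.08 and 4.03 FPKM over the 12 libraries. Their log2 differences were 0.01 ± 0.04 and -0.04 ± 0.07 (SE), with limma adjusted p-values of 0.955 and 0.916. Both ranges in the labelled Primary hepatocytes fell inside those of Hep-Orgs.

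Muc4 ranged from 0.189 to 0.378 FPKM, Muc5b from 0.0476 to 0.167 FPKM and Muc5ac from 0.0144 to 0.0768 FPKM. Tff2 ranged from 0.105 to 0.555 FPKM, on 1 to 7 fragments a library. Tff1 gave 1 fragment in P5 replicate 1 (0.109 FPKM) and 0 in the other 11 libraries, where a count of 0 allows up to 0.447 FPKM. Side by side and without a test, Tff1 in Cho-Orgs at P0 was 761 to 1885 FPKM. The trefoil share of the 9 genes was 10.7% to 17.5% in the hepatocyte table.

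**Figure D4:**
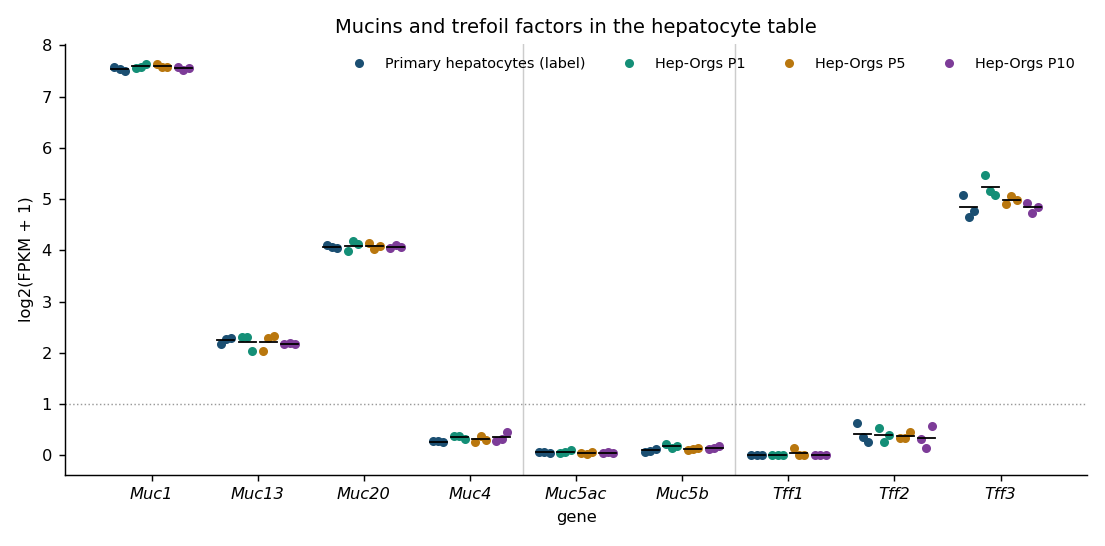
Log2(FPKM + 1) of the 9 genes in the 12 libraries of the hepatocyte table, by group (3 points each, bars are means). Muc1 lies at 181 to 199 FPKM in every group, and 5 genes lie under 1 FPKM (dotted line at log2 value 1) in every library.

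The pathway lists were as flat. In both tests limma called 0 of 13 tested mucous secretory cell genes, 0 of 14 O-glycosylation genes, 0 of 5 other mucins and 0 of 8 partners and sheddases. Agr2 lay between 3.36 and 6.14 FPKM over the 12 libraries. Gkn2 was listed at 0 in every library.

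The 3 morphologies of early Hep-Orgs had 1 library each, so differences have no replicate check and no test. Muc4, Muc5ac, Muc5b and Tff1 were under 1 FPKM in all 3, and the other 5 genes reached 1 FPKM in at least 1 library. Intervals are exact, at 95%, and cover counting error only. Their fragment numbers are approximate, rounded from FPKM, the estimated depth and the gene lengths of the hepatocyte table.

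Muc1 was at 3.91 FPKM in Grape_like, 48.5 FPKM in Intermediate and 132 FPKM in Round_like. It was 33.8-fold (30.4 to 37.5) higher in Round_like than in Grape_like and 12.4-fold (11.1 to 13.8) higher in Intermediate than in Grape_like. Muc20 followed the same order at 0.0642, 2.94 and 6.75 FPKM, with Round_like 105-fold (59.0 to 228) above Grape_like on 10 fragments in the latter.

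Muc13 instead peaked in Intermediate, at 2.49, 101 and 0.969 FPKM in the same order of libraries. Intermediate exceeded Round_like 104-fold (86.5 to 125) and Grape_like 40.5-fold (36.1 to 45.5). Tff3 had the same shape at 1.96, 75.2 and 0.0542 FPKM, the last a single fragment. Its ratio of Intermediate to Grape_like was 38.3 (27.7 to 53.8), and that of Intermediate to Round_like was 1387 (268 to 59028.5). Tff2 was at 1.84, 6.77 and 0.696 FPKM, 3.68-fold (2.62 to 5.29) higher in Intermediate than in Grape_like.

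Tff1 was listed at 0 in Grape_like and Intermediate, where that allows up to 0.157 and 0.156 FPKM, and at 0.715 FPKM (14 fragments) in Round_like. Muc4 was at 0.0441, 0.0716 and 0.167 FPKM. Muc5ac was at 0, 0.00230 and 0.0208 FPKM and Muc5b at 0, 0.0430 and 0.0199 FPKM.

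Past 2-fold on the scale of FPKM + 1, 1 of the 5 genes was higher and 2 were lower in Grape_like than in Round_like, against 12.9% and 8.82% of 12595 genes. In Intermediate against Round_like 3 were higher and 1 lower, against 3.85% and 2.54%. There Muc20 was just short of the cut, at a log2 ratio of -0.98. In Grape_like against Intermediate 0 were higher and 5 lower, against 9.71% and 7.15%.

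**Figure D5:**
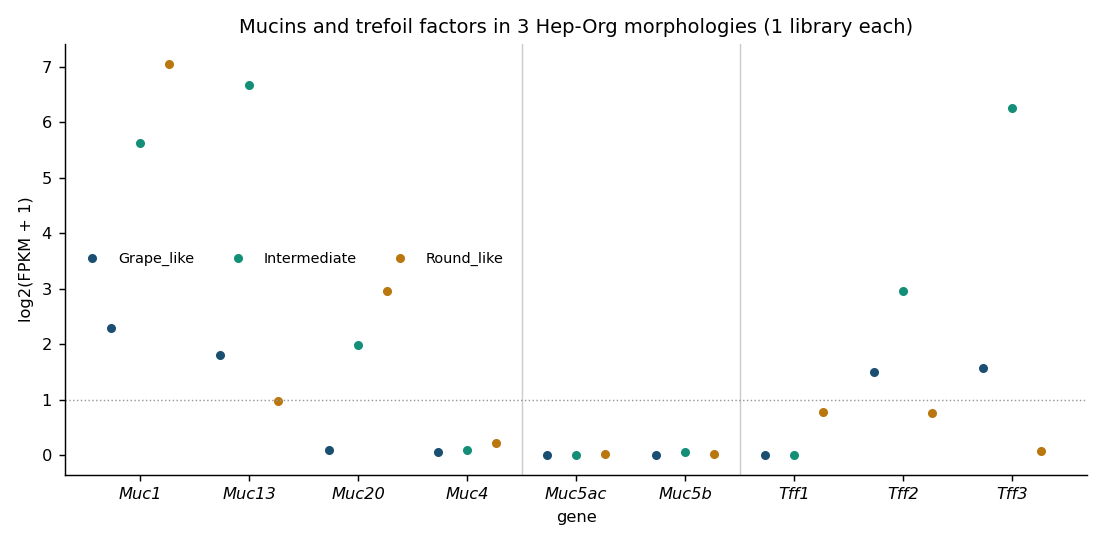
Log2(FPKM + 1) of the 9 genes in the Grape_like, Intermediate and Round_like Smart-Seq libraries, 1 point per library and no error. Muc1 and Muc20 are highest in Round_like, and Muc13, Tff2 and Tff3 are highest in Intermediate.

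Of 11 mucous secretory cell genes at 1 FPKM or more, 0 were past 2-fold higher and 4 lower in Grape_like than in Round_like, against 12.9% and 8.82% of all genes. In Intermediate against Round_like 2 were higher and 1 lower, against 3.85% and 2.54%, and in Grape_like against Intermediate 0 were higher and 7 lower, against 9.71% and 7.15%. Agr2 was at 50.9 FPKM in Intermediate and listed at 0 in the others, whereas Fcgbp, named after its values were seen, was highest in Round_like, at 0.353, 2.24 and 13.0 FPKM. The 6 macrophage markers summed to 1548 FPKM in Grape_like, 499 FPKM in Intermediate and 314 FPKM in Round_like, and the 6 stellate cell markers to 814, 199.7 and 142 FPKM. The 8 cholangiocyte markers summed to 877, 3454 and 2834 FPKM and the 8 hepatocyte markers to 5051, 8480 and 1265 FPKM. Their part in the differences between morphologies was not tested.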

How the data were processed

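The deposited tables hold FPKM per gene, which the authors computed from polyA RNA-seq and Smart-Seq libraries; the submitters' notes name mm10, featureCounts 2.0.3 and edgeR 3.40.2, and no aligner or strand setting is given in the sources used here. Columns were mapped to samples by title. In the hepatocyte table FPKM times gene length gave whole fragments for 100% of values (within 0.05), and the fragments showed that it had been scaled by median-of-ratios library sizes. Depth in the other tables was estimated from low genes with 1 annotated transcript and is approximate.

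Genes with at least 1 FPKM in at least 3 libraries were fitted on log2(FPKM + 1) with limma 3.58.1 (R 4.3.3, eBayes with trend, two-sided, Benjamini-Hochberg over all genes tested, threshold 0.05), all libraries of a table together. The fit was checked on simulated data in which 200 genes had been changed. Those data had the same small spread between libraries in every group. The check therefore does not cover unequal spread such as that of Tff3 in Cho-Orgs, with a coefficient of variation of 62.9% at P0 and 9.04% at P10. Smart-Seq libraries were compared by ratios alone. The named list genes were the 3 with the highest mean in Cho-Orgs and up to 3 per direction with the largest called change at P10 against P0. The members and lists were chosen with earlier results of these data known. The study gives replicate numbers as mice, so same-numbered libraries are pairs by design. The correlation of their deviations from the group means was 0.0702, 0.0903 and 0.119 between Cho-Orgs P0 and P5. Differently numbered pairs of those passages reached at most 0.0505. In the other same-numbered Cho-Org pairs it was -0.0741 to 0.00676. Over all Cho-Org pairs the median was -0.00626 with the same number and -0.00301 with different numbers, and the latter reached 0.0930. The reported fit has no block, and the blocked fit is given wherever it changed the call of a member. Alternatives covered the pseudocount, filter, scaling, eBayes trend, fitted groups, replicate block and each library left out.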

Additional observations from a re-analysis of the deposited data

How the results depend on the processing

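Of 452 alternative values of the 9 genes in Cho-Orgs, 432 kept their direction and their side of the threshold, 8 gained and 9 lost a call, and 3 changed sign. The last were Muc1 at P10 against P0, 0.00412 on FPKM rescaled to TPM and -0.0765 to 0.000677 with each library left out, and Muc13 at P10 against P0, -0.33 to 0.47 with each library left out; none of these sign changes was called. Of 75 such values in the hepatocyte libraries 73 kept both, and Muc20 ranged from -0.00292 to 0.0296, below 0 without Primary hepatocytes replicate 3 or Hep-Orgs P1 replicate 2. Median-ratio size factors could not test that table, since it was deposited with this scaling and every library is divided by the same constant.

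With the replicate number as a block, the genes called went from 8 to 9 at P5 against P0 and from 6 to 7 at P10 against P5, by the gain of Muc1 and of Tff3, and stayed at 7 at P10 against P0; no other call of the 9 genes changed. In the pathway lists it added Galnt10 (adjusted p = 0.0466) and dropped Galnt2 (0.0660) at P5 against P0, and added Creb3l1 (0.0367) at P10 against P5. Without each library in turn the 3 counts ranged from 7 to 9, 7 to 7 (P10 against P0) and 6 to 7, and both counts of the hepatocyte table were 0 throughout. With a pseudocount of 0.1 in place of 1, the genes past 2-fold in Grape_like against Round_like went from 3 to 5, because a smaller pseudocount shrinks low ratios less. Those lower in Intermediate against Round_like went from 1 to 2 by the gain of Muc20, with 611 of all 12595 genes lower. On FPKM rescaled to TPM they were also 2, with 382 of all 12613 genes lower. Single libraries per morphology and the 1 to 7 fragments behind Tff2 in the hepatocyte table limit what those values can show.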
